A study of Homo sapiens with 3 samples.

Results

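The 49 genes described here encode the machinery of mitosis: mitotic kinases, the spindle checkpoint, condensin and other chromosome proteins, spindle proteins and the proteins of cytokinesis. They were taken by gene symbol from a list of names drawn up with earlier results of these data known, though with no cut on a measured value, and each of the 49 has a row among the 19215 genes of the authors' deposited table. RNA was sequenced from C28/I2, an established human line of chondrocyte origin that carries a viral large T antigen. The 3 listed samples are spheroids, rounded cell clusters, kept in serum-containing medium with 0.5% DMSO, a drug solvent, for 48 h. They are compared with monolayer cultures of the same line through the authors' own fold changes; the single monolayer libraries were not analysed here, and the sources used here do not give their treatment. All samples come from 1 line. Nothing in the labels says that the 3 spheroid samples were grown separately, so their spread may be technical. Replicate 1 stood apart for these genes, being the highest library for each of the 49, as described after the comparison with monolayer. Levels are FPKM, a count of fragments scaled for transcript length and library size, which allows levels of different genes to be set side by side.

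Transcripts of mitotic genes are made in waves in dividing cells. MYBL2 (B-Myb), bound to the MuvB complex, and FOXM1 switch on the late cell cycle genes in G2, and in resting cells the DREAM complex, which shares the MuvB core, keeps the same genes off. Both complexes are recruited to a short promoter element, the cell cycle homology region, and many of these promoters also hold CCAAT boxes, which are bound by NF-Y. Articular chondrocytes in adult cartilage rarely divide, whereas an immortalised line in monolayer divides continuously.

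Of the 49 members, 38 have a promoter in the RefSeq table of GRCh38.p14 sequences, 45 promoters in all, since some have several start sites. The cell cycle homology region was searched as TTTGAA or TTCGAA on either strand, from 250 bases before to 50 bases after the start. It was found in 30 of the 38 members (78.9%), against 2394 of 14250 other tested genes with a promoter (16.8%). The CCAAT box, searched as CCAAT on either strand, was found in 26 of 38 members (68.4%), against 42.4% of other tested genes. In 16 members (42.1%) a promoter held more than 1 CCAAT box, against 15.0% of other tested genes. The median GC content of the promoters was 62.7% for the members and 63.0% for other tested genes. The sequences below, from 100 bases before to 10 bases after the start and read 5′ to 3′ on the gene's strand, are shown because they let the reader see how close the element lies to the start site in genes of different roles. Capitals mark the cell cycle homology region and the CCAAT box, which on the opposite strand reads ATTGG. NEK2 is shown as a member with CCAAT boxes and no cell cycle homology region in the window. Matches further upstream fall outside the printed stretch, such as those of TOP2A at -194 and -151 and a second copy in CDC20 at -178.
CDCA8, chr1:37692416-37692525, plus strand: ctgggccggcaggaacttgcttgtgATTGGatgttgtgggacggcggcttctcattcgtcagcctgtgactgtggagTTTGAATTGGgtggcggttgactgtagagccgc
PLK1, chr16:23678789-23678898, plus strand: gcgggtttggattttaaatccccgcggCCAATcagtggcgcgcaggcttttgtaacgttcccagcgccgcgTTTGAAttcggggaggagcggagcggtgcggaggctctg
BUB1, chr2:110678054-110678163, minus strand: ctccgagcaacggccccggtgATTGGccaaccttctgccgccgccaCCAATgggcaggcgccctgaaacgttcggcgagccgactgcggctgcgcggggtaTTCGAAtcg
BUB1B, chr15:40160969-40161078, plus strand: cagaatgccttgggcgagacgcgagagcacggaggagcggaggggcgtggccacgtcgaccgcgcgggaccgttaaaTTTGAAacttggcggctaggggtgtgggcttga
CDC20, chr1:43358881-43358990, plus strand: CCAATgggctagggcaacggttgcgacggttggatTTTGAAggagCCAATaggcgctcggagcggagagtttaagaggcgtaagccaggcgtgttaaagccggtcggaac
ESPL1, chr12:53268199-53268308, plus strand: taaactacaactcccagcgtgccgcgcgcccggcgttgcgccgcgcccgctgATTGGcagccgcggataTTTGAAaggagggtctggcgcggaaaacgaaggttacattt
SGO1, chr3:20186197-20186306, minus strand: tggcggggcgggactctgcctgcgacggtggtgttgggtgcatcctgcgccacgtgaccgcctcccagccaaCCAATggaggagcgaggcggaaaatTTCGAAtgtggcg
MKI67, chr10:128126414-128126523, minus strand: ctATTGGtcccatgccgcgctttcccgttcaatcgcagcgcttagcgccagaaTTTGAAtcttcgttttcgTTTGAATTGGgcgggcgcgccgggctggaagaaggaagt
HMMR, chr5:163460532-163460641, plus strand: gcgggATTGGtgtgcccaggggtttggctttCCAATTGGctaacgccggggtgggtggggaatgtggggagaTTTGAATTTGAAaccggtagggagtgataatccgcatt
DLGAP5, chr14:55191576-55191685, minus strand: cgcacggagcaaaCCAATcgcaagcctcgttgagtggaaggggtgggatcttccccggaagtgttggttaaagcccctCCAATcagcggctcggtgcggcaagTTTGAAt
ANLN, chr7:36389762-36389871, plus strand: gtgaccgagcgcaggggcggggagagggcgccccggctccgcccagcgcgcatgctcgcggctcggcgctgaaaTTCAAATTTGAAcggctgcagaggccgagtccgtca
PRC1, chr15:90994526-90994635, minus strand: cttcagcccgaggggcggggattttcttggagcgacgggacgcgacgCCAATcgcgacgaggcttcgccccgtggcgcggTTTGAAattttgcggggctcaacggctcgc
NEK2, chr1:211675612-211675721, minus strand: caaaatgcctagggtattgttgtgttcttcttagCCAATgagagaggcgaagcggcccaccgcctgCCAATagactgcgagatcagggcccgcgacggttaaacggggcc

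The element lay at -23 in the promoter of CDCA8, at -29 in that of PLK1 and at -23 in that of BUB1B, counting to its first base from the start site. In CDCA8, and for the copy nearest the start in MKI67, it shares 1 base with the CCAAT box that follows, and in HMMR a pair of CCAAT boxes on opposite strands overlap each other. HMMR carried a tandem pair at -28 and -22, MKI67 had elements at -47 and -29, and ANLN had adjoining copies on opposite strands at -26 and -20. In BUB1 and SGO1 the form was TTCGAA, at 2 and -3. Of 41 matches in the members' promoters, 20 began within 50 bases before the start and 8 after it, and the median position was -26. The members with a promoter but no match were AURKB, TACC3, NCAPH, MYBL2, PTTG1, SGO2, NEK2 and CKAP2. In the authors' deposited table the median log2 fold change was -3.29 for the 30 members with a match and -2.81 for the 8 without. The groups overlapped: AURKB, without a match, stood at -3.92 and NCAPD2, with a match, at -1.64 in the authors' deposited table. The 11 members with no promoter entry are in neither group, and the difference was not tested. A GC-rich stretch written GGCGG or CGCGG was present in all 38 members and in 84.8% of other tested genes. The members without an entry were FOXM1, AURKA, BUB3, TTK, TPX2, BIRC5, UBE2C, TROAP, RACGAP1, FAM83D and CDCA2.

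**Figure D1:**
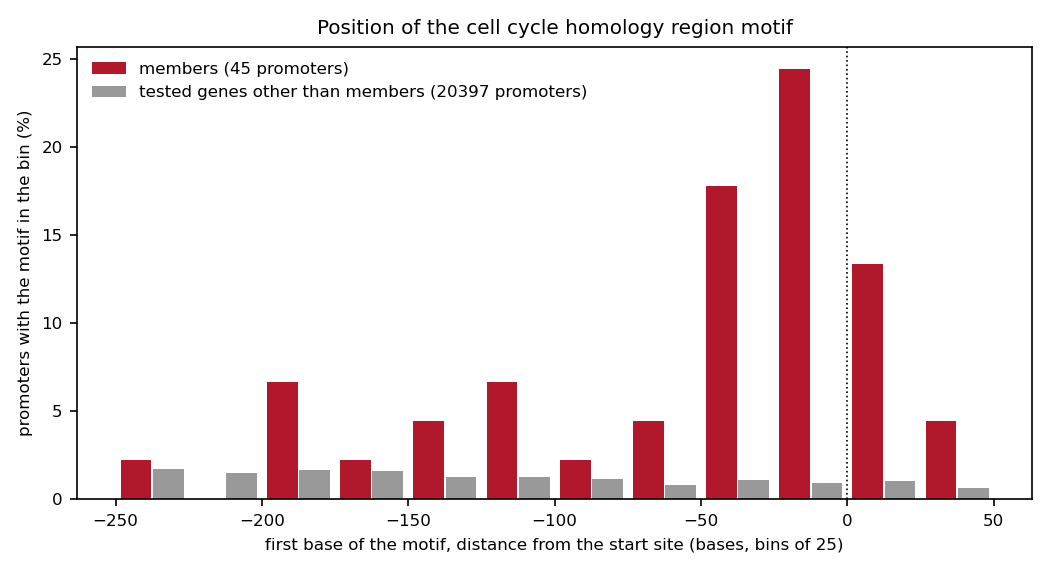
Share of promoters (%) in which the cell cycle homology region motif begins in each bin of 25 bases, against distance from the start site in bases, for 45 promoters of the members (red) and 20397 promoters of other tested genes (grey). The red bars are highest in the bins just before the start site, at 17.8% and 24.4%, where the grey bars stand at 1.11% and 0.922%.

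In spheroids each of the 49 mitotic genes had a lower transcript level than in monolayer. A gene was called when its adjusted p in the authors' DESeq2 comparison was under 0.05 and its log2 fold change was -1 or less, or 1 or more. This rule called 49 of 49 members lower, against 9.34% of the 18467 genes tested. None was called higher, against 11.5% of genes tested. At an unadjusted p under 0.05 in that comparison 49 were lower and none higher, against 26.3% and 28% of genes tested. In the authors' deposited table the members' median log2 fold change was -3.23, or 9.41 times below monolayer, against a median of 0.04 for all tested genes. Of the members, 33 stood at -3 or less in the authors' deposited table, where 1.14% of tested genes did, 11 between -3 and -2, and 5 between -2 and -1. Those at -2 or less numbered 44, against 3.06% of tested genes. In a bulk sample, fewer dividing cells and less of these transcripts in each cell cannot be told apart. The adjusted p-values of the members ran from 2.43e-267 for IQGAP3 to 8.12e-18 for HMMR in the authors' DESeq2 comparison.

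Markers of other cell types moved in the same comparison, in which 11.5% of all genes tested were called higher and 9.34% lower. Of 10 immune markers 5 were called higher and none lower in the authors' DESeq2 comparison. At an unadjusted p under 0.05 in that comparison 6 were higher and 0 lower, against 28% and 26.3% of all genes. The 10 had a median of 1.87 on the log2 scale of the authors' deposited table. The 5 called higher were the lysosomal glycoprotein gene CD68 at 2.16 (adjusted p = 3.01e-97, DESeq2), the T cell receptor complex genes CD3D at 1.88 and CD3E at 2.14, CD163 at 2.58 and ITGAM at 1.86 in the authors' deposited table. Mean spheroid levels were 702 FPKM for CD68, 32.6 for CD3D and 1.09 for CD3E. CD163 and ITGAM were low in spheroids, with means of 0.30 and 0.35 FPKM. The defining leukocyte gene PTPRC was at 0, 0.01 and 0.06 FPKM in spheroids. Also called higher were KRT5 of 4 epithelial markers, PECAM1 and KDR of 4 endothelial markers, and MYH1 and MYOD1 of 5 muscle markers, and FABP4 of 3 adipocyte markers was called lower. Of these, MYH1 alone exceeded 1 FPKM in spheroids. Of 11 chondrocyte markers tested, ACAN at -2.16 and HAPLN1 at -1.63 were called lower and SOX5 and COL9A1 higher in the authors' deposited table. Mean spheroid levels were low for each, at 0.730 FPKM for ACAN, 0.070 for HAPLN1, 0.043 for SOX5 and 0.133 for COL9A1. At an unadjusted p under 0.05 in the DESeq2 comparison 5 of the 11 were lower and 2 higher, against 26.3% and 28% of all genes. SOX9, at -0.62, was among the lower ones (adjusted p = 3.23e-07, DESeq2). Whether these marker changes bear on the fall of the mitotic genes was not tested.

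**Figure D2:**
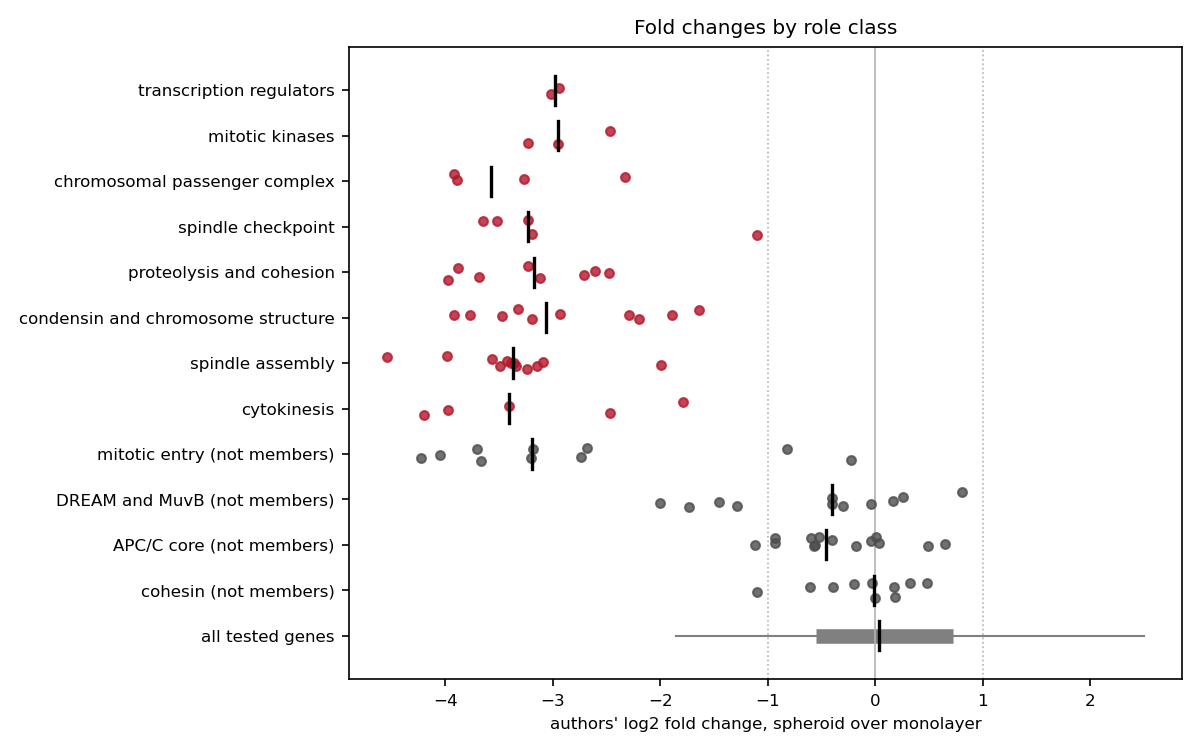
The authors' log2 fold change of spheroid over monolayer cultures for each member by role class (red points) and for 4 lists of related genes outside the members (dark grey points), with list medians as black bars. The bottom row gives all 18467 tested genes (median, thick bar for the middle 50%, line from the 5% to the 95% quantile); every red point lies left of the dotted line at -1.

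Transcripts of these genes were still measured in spheroids. Mean levels ran from 0.777 FPKM for ASPM to 42.9 FPKM for BUB3, with a median of 4.03 FPKM, 28 members below 5 FPKM and 6 at 10 FPKM or more. No member was listed at 0 in any library, and 47 reached 1 FPKM in every library. ASPM, a spindle pole protein whose loss causes microcephaly, was below 1 FPKM in all 3, at 0.94, 0.78 and 0.61 FPKM.

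**Figure D3:**
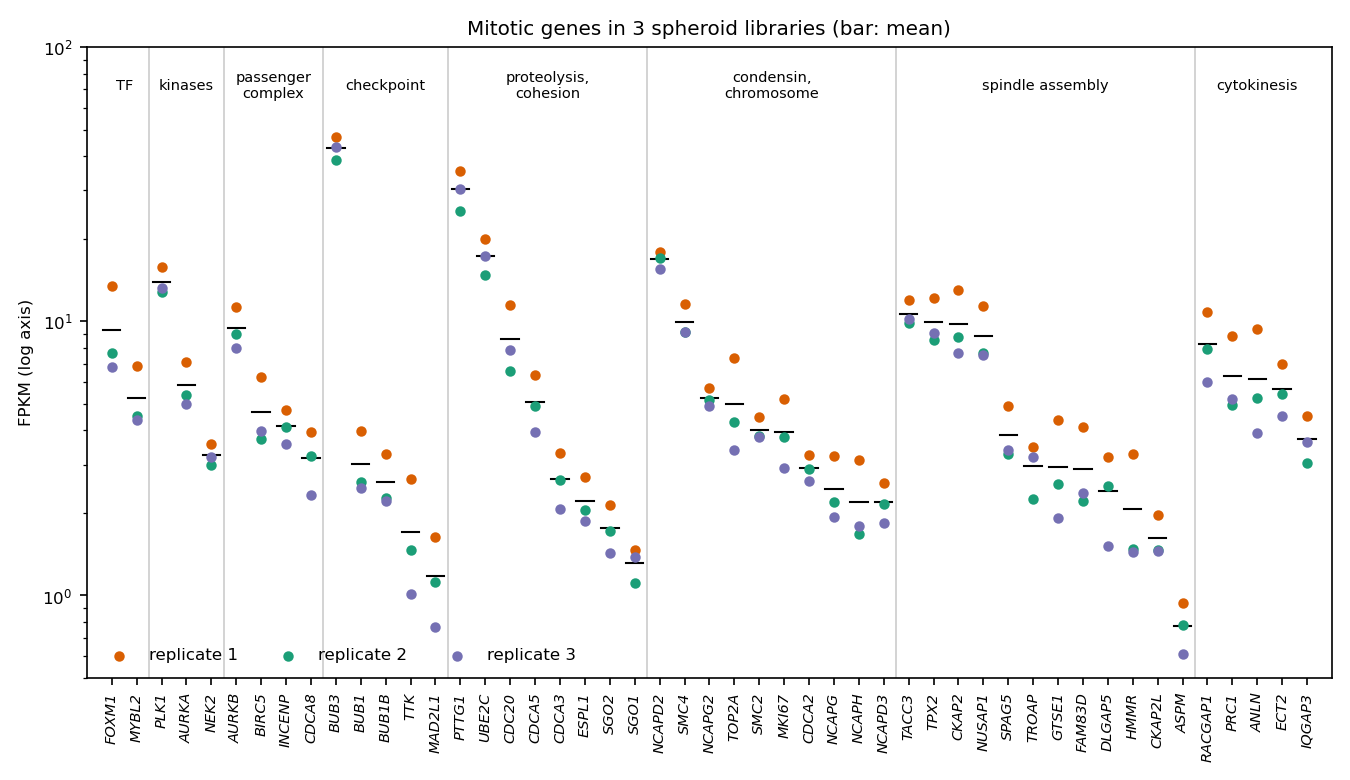
FPKM (log axis) of each member in spheroid replicates 1 (orange), 2 (green) and 3 (purple), with the mean as a black bar, grouped by role (TF, transcription regulators) and ordered by level. Most members lie between 1 and 20 FPKM, BUB3 and PTTG1 stand highest, and the orange point is the top one for every gene.

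Both transcription regulators among the members fell. FOXM1, a forkhead factor, was at 13.42, 7.63 and 6.82 FPKM in replicates 1, 2 and 3, and its log2 fold change was -2.95 in the authors' deposited table (adjusted p = 7.33e-22, DESeq2). MYBL2 was at 6.85, 4.52 and 4.38 FPKM and stood at -3.01 in the authors' deposited table. In each, replicate 1 was well above the other libraries, which lay close together. Of 11 subunits of the DREAM and MuvB complexes, which were not members, 4 (36.4%) were lower and none higher by the same rule, against 9.34% and 11.5% of all genes tested. At an unadjusted p under 0.05 in the DESeq2 comparison 7 of the 11 were lower and 2 higher, against 26.3% and 28% of all genes. Their median was -0.40 in the authors' deposited table. Those that fell were the pocket protein gene RBL1, which was 4.01 times below monolayer, the MuvB genes LIN9 at -1.73 and LIN54 at -1.29, and TFDP1, the dimer partner of E2F, at -1.46 in the authors' deposited table. RBL2, the pocket protein of resting cells, was at 0.26 and E2F4 at -0.40 in the authors' deposited table, with spheroid levels of 15.2 ± 0.621 and 43.1 ± 0.724 FPKM (SD, n = 3).

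Among the kinases, PLK1, which drives mitotic entry, centrosome maturation and cytokinesis, kept the highest level. It was at 15.83, 12.79 and 13.19 FPKM and its log2 fold change was -2.95 in the authors' deposited table (adjusted p = 3.45e-155, DESeq2). AURKA, the Aurora kinase of centrosomes and spindle poles, was at 7.13, 5.39 and 5.01 FPKM and stood at -3.23 in the authors' deposited table. NEK2, a kinase that separates the centrosomes, was at 3.57, 2.98 and 3.21 FPKM and stood at -2.47 in the authors' deposited table. Replicate 1 was highest in each, but the 3 libraries lay closer together than for most members. The median coefficient of variation was 11.9% in this class of PLK1, AURKA and NEK2, with AURKA at 19.3%. Kinase genes placed in other classes ranged from 17.9% for AURKB to 49.7% for TTK.

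The chromosomal passenger complex corrects faulty attachments of chromosomes to the spindle and acts again in cytokinesis. Its kinase AURKB was at 11.28, 8.97 and 8.0 FPKM and its log2 fold change was -3.92, or 15.1 times below monolayer, in the authors' deposited table (adjusted p = 2.46e-203, DESeq2). The borealin gene CDCA8 stood at -3.89, the survivin gene BIRC5 at -3.27 and the scaffold gene INCENP at -2.33 in the authors' deposited table. The change of INCENP was the one nearest to 0 in the complex; the difference from its partners was not tested. Spheroid levels were 4.65 ± 1.39 FPKM for BIRC5, 4.14 ± 0.580 for INCENP and 3.16 ± 0.812 for CDCA8 (SD, n = 3). AURKA stood at 0.620 ± 0.0166 of the AURKB level (SD, n = 3), a ratio that held within 0.601 and 0.632 while the level of each moved with the library.

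The spindle checkpoint delays anaphase until every chromosome is attached, and its members ranged widely in level. BUB3, a WD40 protein that carries BUB1 and BUBR1 to kinetochores, was at 46.81, 38.69 and 43.22 FPKM, and its log2 fold change of -1.10 was the closest to 0 of the 49 in the authors' deposited table (adjusted p = 2.94e-31, DESeq2). The kinase gene BUB1 was at 3.97, 2.60 and 2.46 FPKM and stood at -3.23, and BUB1B, encoding BUBR1, was at 3.27, 2.26 and 2.22 FPKM and stood at -3.52 in the authors' deposited table. BUB3 was thus 14.7 ± 2.89 times the BUB1 level in spheroids (SD, n = 3) and 14.3 to 19.5 times the BUB1B level. TTK, the MPS1 kinase that starts checkpoint signalling, was at 2.65, 1.46 and 1.01 FPKM and stood at -3.65 in the authors' deposited table. MAD2L1, whose product MAD2 holds back CDC20, was at 1.64, 1.12 and 0.77 FPKM and stood at -3.20 in the authors' deposited table. The coefficient of variation was 49.7% for TTK and 37.2% for MAD2L1, while other members as low were more even, SGO1 at 13.9% and CKAP2L at 17.8%.

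The anaphase-promoting complex marks securin and cyclin B for destruction. CDC20, the activator that the checkpoint restrains, was at 11.47, 6.57 and 7.87 FPKM and its log2 fold change was -3.89 in the authors' deposited table (adjusted p = 5.81e-159, DESeq2). UBE2C, the ubiquitin-conjugating enzyme of the complex, was at 19.92, 14.73 and 17.24 FPKM and stood at -3.69 in the authors' deposited table. Of the 14 core subunits of the complex, which were not members, 1 (7.14%) was called lower, ANAPC7 at -1.12 in the authors' deposited table. None was called higher, against 9.34% lower and 11.5% higher of all genes tested. At an unadjusted p under 0.05 in the DESeq2 comparison 8 of the 14 were lower and 2 higher, against 26.3% and 28% of all genes. More of them were thus lower than over all genes, all but ANAPC7 by less than 1 on the log2 scale. The core subunits had a median of -0.46 (log2) by the authors' deposited table and spheroid levels from 5.16 FPKM for ANAPC1 to 67.5 FPKM for ANAPC13.

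Separase and securin, which release sister chromatids, kept unequal levels. PTTG1, the securin gene, was at 35.20, 25.28 and 30.42 FPKM and its log2 fold change was -2.61 in the authors' deposited table. ESPL1, the separase gene, was at 2.70, 2.05 and 1.87 FPKM and stood at -3.23 in the authors' deposited table. The securin level was 13.9 ± 2.10 times that of separase (SD, n = 3); PTTG1 has near-identical retrocopies that can share its reads, so its level is uncertain. The shugoshin genes SGO1 and SGO2, whose products protect centromeric cohesion, had values of -2.71 and -2.48 on the log2 scale of the authors' deposited table, with spheroid levels of 1.32 ± 0.183 and 1.76 ± 0.352 FPKM (SD, n = 3). CDCA5, the sororin gene, which stabilises cohesin on sister chromatids, stood at -3.12, and CDCA3, encoding an F-box-like protein of mitotic entry, at -3.97 in the authors' deposited table.

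Condensin compacts chromosomes for mitosis; both of its forms share SMC2 and SMC4 and differ in their other subunits. The condensin I genes NCAPG and NCAPH had values of -3.47 and -3.33 on the log2 scale of the authors' deposited table, whereas their partner NCAPD2 stood at -1.64. NCAPD2 was at 17.96, 17.01 and 15.50 FPKM, the most even of the 49 members, with a coefficient of variation of 7.37%. NCAPH was at 3.12, 1.68 and 1.79 FPKM and NCAPG at 3.22, 2.2 and 1.94 FPKM. NCAPD2 thus stood at 8.18 ± 2.22 times the NCAPH level (SD, n = 3), from 5.76 times in replicate 1 to 10.1 times in replicate 2. Of condensin II, NCAPG2 stood at -3.19 and NCAPD3 at -2.29 in the authors' deposited table, with spheroid levels of 5.27 ± 0.423 and 2.19 ± 0.372 FPKM (SD, n = 3). NCAPH2, the remaining condensin II subunit gene and outside the members, stood at -1.64 with 14.7 ± 0.525 FPKM (SD, n = 3) in the authors' deposited table. The shared SMC4 was at 11.52, 9.10 and 9.16 FPKM and stood at -2.94, and SMC2 was at 4.47, 3.82 and 3.79 FPKM and stood at -1.89 in the authors' deposited table.

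TOP2A, the topoisomerase that untangles sister chromatids, was at 7.32, 4.28 and 3.39 FPKM and stood at -3.92 in the authors' deposited table. MKI67, the Ki-67 antigen that coats mitotic chromosomes, was at 5.19, 3.77 and 2.92 FPKM and stood at -3.77 in the authors' deposited table. CDCA2, a phosphatase targeting subunit on chromatin, was 4.59 times below monolayer in the authors' deposited table, with 2.91 ± 0.316 FPKM (SD, n = 3). Cohesin is a related complex that also works in interphase. Of 10 cohesin genes, SMC1A alone (10%) was called lower, at -1.10, and none higher (3 lower and 2 higher at an unadjusted p under 0.05 in the DESeq2 comparison), and the authors' deposited table gave a median of -0.02. The share called lower was close to the 9.34% of all genes tested, and at an unadjusted p under 0.05 the counts were near the 26.3% lower and 28% higher of all genes. The difference between the lists was not tested.

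Spindle assembly genes held both the largest fall and the lowest level. TROAP, encoding trophinin-associated protein (tastin), was at 3.47, 2.24 and 3.20 FPKM, and its log2 fold change of -4.54, or 23.3 times below monolayer, was the furthest from 0 of the 49 in the authors' deposited table (adjusted p = 1.10e-190, DESeq2). ASPM followed within this class at -3.99, NUSAP1, a microtubule bundling protein, at -3.57, GTSE1, a microtubule plus-end protein, at -3.49, and FAM83D, which targets casein kinase 1 to the spindle, at -3.43 in the authors' deposited table. TACC3, which bridges spindle microtubules, was at 12, 9.85 and 10.16 FPKM and stood at -3.36 in the authors' deposited table. TPX2, the activator of AURKA on the spindle, was at 12.19, 8.53 and 9.04 FPKM and stood at -3.24 in the authors' deposited table.

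The rest of the spindle class lay in the same range with one exception. HMMR, DLGAP5 and CKAP2L, all microtubule-associated, stood at -3.39, -3.14 and -3.09, and SPAG5, the astrin gene, at -3.34 in the authors' deposited table. CKAP2, a microtubule-stabilising protein, was at 13.03, 8.74 and 7.64 FPKM and stood at -1.99 in the authors' deposited table. Its spheroid level of 9.80 ± 2.85 FPKM was above the 1.63 ± 0.289 FPKM of CKAP2L (SD, n = 3).

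Cytokinesis genes spanned a wide range. IQGAP3, a scaffold protein of proliferating cells, was at 4.52, 3.05 and 3.63 FPKM and its log2 fold change was -4.20 in the authors' deposited table. ANLN, the anillin gene of the contractile ring, was at 9.36, 5.24 and 3.92 FPKM and stood at -3.98 (adjusted p = 7.28e-24, DESeq2), and PRC1, which bundles the central spindle, was at 8.80, 4.93 and 5.21 FPKM and stood at -3.41 in the authors' deposited table. RACGAP1, a subunit of centralspindlin, was at 10.82, 7.91 and 5.98 FPKM and stood at -2.47 in the authors' deposited table. ECT2, the exchange factor that switches on RhoA at the cleavage site, was at 6.98, 5.41 and 4.53 FPKM and stood at -1.79 in the authors' deposited table. ECT2 and RACGAP1, whose products bind each other at the midzone, had the smallest changes of the class.

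The cyclins and kinases of mitotic entry, outside the members, were mostly lower too: 8 of 10 (80%) were lower and none higher, against 9.34% and 11.5% of all genes tested. At an unadjusted p under 0.05 in the DESeq2 comparison 10 were lower and none higher, against 26.3% and 28% of all genes. Their median was -3.19 in the authors' deposited table. PKMYT1, an inhibitory kinase of CDK1, stood at -4.23, the phosphatase gene CDC25C at -4.05, CCNA2 at -3.70, CDK1 at -3.67, CCNB2 at -3.20 and CCNB1 at -3.19 in the authors' deposited table. CDC25B, at -0.22, and WEE1, at -0.82 in the authors' deposited table, were not called, with spheroid levels of 76.3 ± 3.28 and 8.14 ± 0.679 FPKM (SD, n = 3).

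Many members have paralogues in the same protein family. In 12 families with 14 members and 33 other genes, 7 of the others (21.2%) were lower and 3 higher, against 9.34% and 11.5% of all genes tested, and their median log2 fold change was -0.02 in the authors' deposited table. At an unadjusted p under 0.05 in the DESeq2 comparison 11 of the 33 were lower and 7 higher, against 26.3% and 28% of all genes. In 10 of the 12 families the members lay below each listed paralogue in the authors' deposited table. The FAM83 paralogues, at means of 0.247 FPKM or less in spheroids, and AURKC, at 0.357 FPKM, were near the floor. None of them was called, and at such levels a change is poorly measured. The topoisomerase TOP2B stood at -0.19 beside TOP2A at -3.92, IQGAP1 at 0.40 beside IQGAP3 at -4.20, and MAD2L2 at -0.02 beside MAD2L1 at -3.20 in the authors' deposited table. TACC1 and SMC1A were called lower near the threshold, at -1.01 and -1.10 in the authors' deposited table. The exceptions were PLK4, the kinase of centriole duplication, at -3.23 beside PLK1 at -2.95, and MYBL1 (A-Myb) at -3.33 beside MYBL2 at -3.01 in the authors' deposited table. PLK2 at -2.14 and MYB at -2.21 were also lower in the authors' deposited table; MYB was listed at 0.067 ± 0.064 FPKM in spheroids (SD, n = 3). Higher were PLK3 at 1.12, IQGAP2 at 1.26 and the apoptosis inhibitor gene BIRC3 at 2.37 in the authors' deposited table. The comparison of members with paralogues was not tested.

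**Figure D4:**
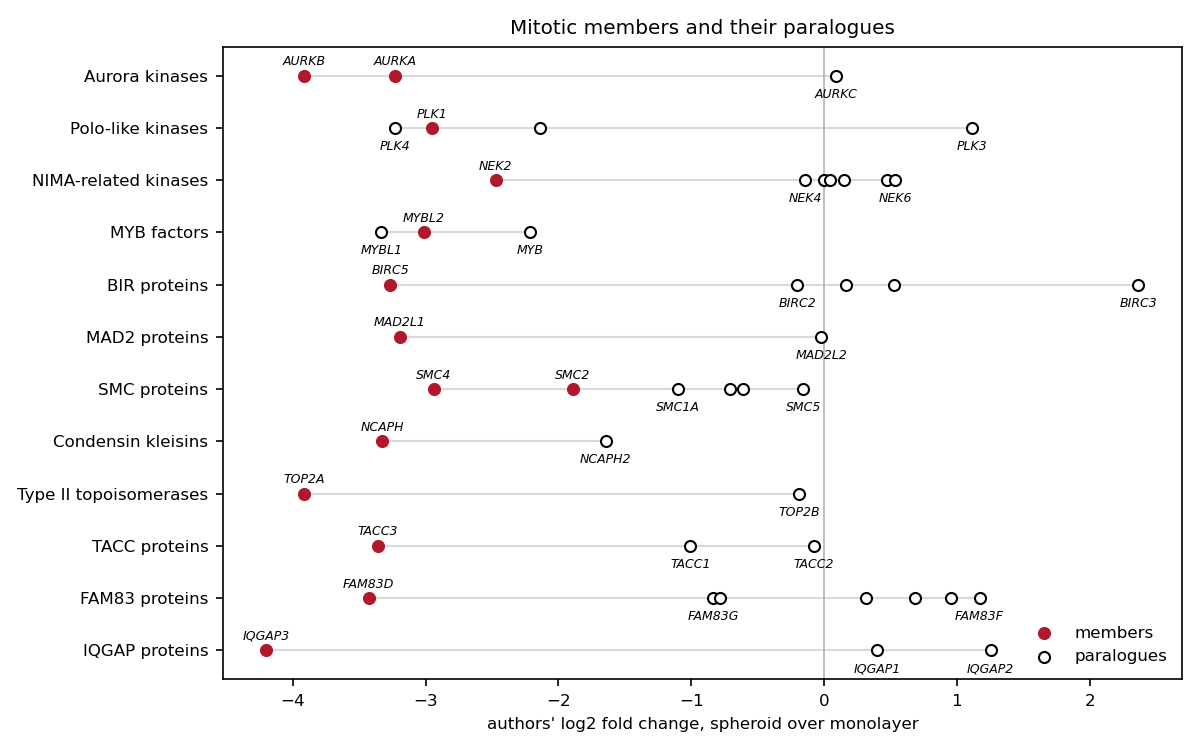
The authors' log2 fold change of spheroid over monolayer cultures for members (red, named above) and their paralogues (open circles, outermost ones named below) in 12 protein families. The red points lie left of all open circles except in the Polo-like kinases and the MYB factors.

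The spheroid libraries themselves differed in mitotic transcripts. Every member was highest in replicate 1, 49 of 49, whereas 38% of the 12410 genes at 1 FPKM or more were highest there. No member was highest in replicate 2 or 3, where 20.2% and 41.2% of those genes were. Replicate 3 was lowest for 32 members and replicate 2 for 17. Replicate 1 stood at a median of 1.4 times the mean of the other libraries, from 1.10 for NCAPD2 to 2.25 for HMMR, against 1.00 over the 12410 genes. In 20 members the ratio was at least 1.5, as in 1.67% of the 12410 genes. The median coefficient of variation of the members was 23.0%, against 8.66% for 10332 other genes in their range of levels. Sets more like the members were also uneven. The median was 20.8% for the 10 mitotic entry genes. It was 17.8% for the 291 other genes at 1 FPKM or more with a log2 fold change of -2 or less in the authors' deposited table. Without replicate 1 the median was 8.08% for the members and 6.96% for the genes at 1 FPKM or more.

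The replicate 1 excess was uneven across members. HMMR was at 3.28, 1.48 and 1.44 FPKM, and TTK, ANLN, GTSE1, TOP2A and FOXM1 followed, with ratios of 2.15, 2.04, 1.96, 1.91 and 1.86. NCAPD2, NCAPG2, BUB3, NEK2 and SGO1 had ratios from 1.10 to 1.17. HMMR, TTK, FOXM1, ANLN and TOP2A were among the 10 members with an adjusted p above 1e-40 in the authors' DESeq2 comparison, although TTK, ANLN and TOP2A had values of -3.65, -3.98 and -3.92 on the log2 scale of the authors' deposited table. GTSE1, with a ratio of 1.96, had an adjusted p of 7.96e-121 and FAM83D, with 1.80, one of 4.85e-91, while BUB3, with 1.14, was among those 10 (DESeq2). Spearman's rho between the coefficient of variation and the adjusted p was 0.37 across members. Across the 49 members, which share libraries and are not independent, Spearman's rho was -0.41 between the replicate 1 ratio and the log2 fold change, and 0.19 between the mean level and the log2 fold change. Spheroid values enter both quantities of each pair.

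Genes outside the list moved with replicate 1 too. Of 1172 other genes at 1 FPKM or more called lower in spheroids, 61.0% were highest in replicate 1, and 77.0% of the 291 at -2 or less in the authors' deposited table were. The share was 38.2% of genes not called and 17.7% of genes called higher. The replicate 1 values are part of the fold changes by which these genes were sorted. Whether the difference between libraries arose in the cultures or in their preparation was not tested. The authors' test could not be run again without replicate 1.

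**Figure D5:**
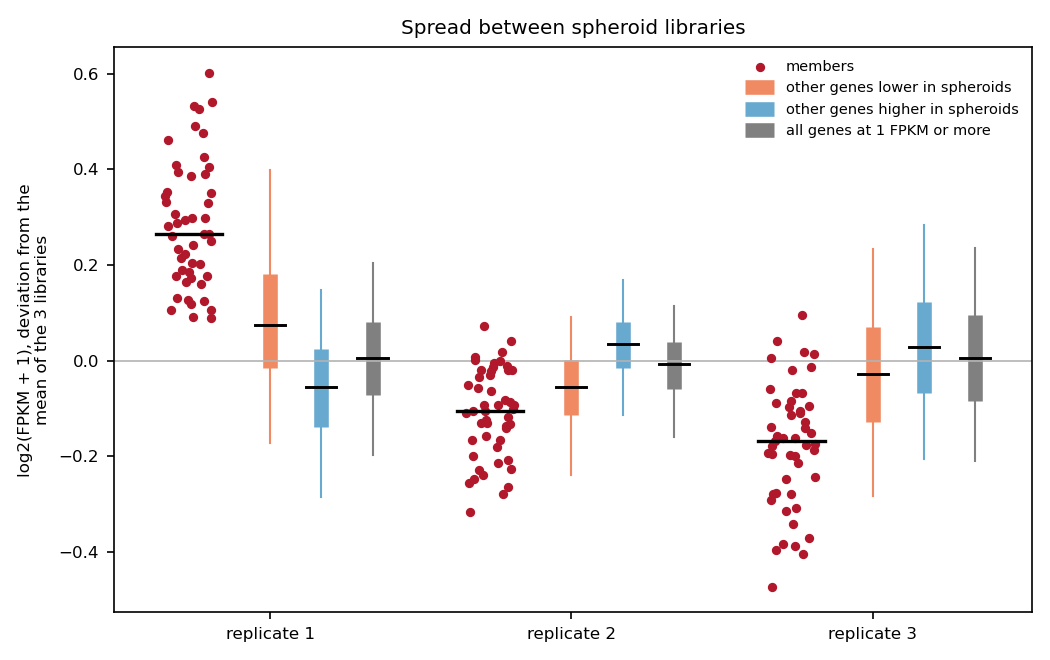
log2(FPKM + 1) in each spheroid library minus the mean over the 3 libraries for the 49 members (red points, median as black bar), other genes called lower (orange) or higher (blue) in spheroids, and all genes at 1 FPKM or more (grey; thick bar for the middle 50%, line from the 5% to the 95% quantile). All red points lie above 0 in replicate 1, with a median of 0.27, and their medians are -0.10 and -0.17 in replicates 2 and 3.

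The 3 libraries had FPKM sums of 571705 to 623496 and 12383 to 12416 genes at 1 FPKM or more, and Pearson's r of log2(FPKM + 1) across 18120 genes, which are not independent replicates, was 0.994 to 0.997. The read totals are unknown. Of 12 markers of chondrocytes, 2 reached 1 FPKM, SOX9 at 6.71 ± 0.0866 and COL11A2 at 2.11 ± 0.506 FPKM (SD, n = 3). The defining COL2A1 and ACAN were at 0.017 ± 0.0115 and 0.730 ± 0.0400 FPKM (SD, n = 3) and CNMD was listed at 0. Few chondrocyte markers thus reached 1 FPKM in this line of chondrocyte origin. Of 10 immune markers, 3 reached 1 FPKM (CD68, CD3D and CD3E) and the leukocyte gene PTPRC was at 0.023 ± 0.032 FPKM (SD, n = 3). Their summed level was 739, 775 and 700 FPKM in replicates 1, 2 and 3, nearly all of it CD68. None of 4 epithelial, 4 endothelial and 3 adipocyte markers reached 1 FPKM, and 3 of 5 muscle markers did, with a summed level of 5.06 to 6.03 FPKM. Of the 49 members, 17 overlap another protein-coding or lncRNA gene in RefSeq, among them FOXM1 with RHNO1, PLK1 with ERN2, BUB1B with a BUB1B-PAK6 readthrough, and HMMR, TROAP, PRC1 and SGO1 with antisense RNAs; since the sources used here do not give the use of strand in counting, reads of such pairs may not have been told apart.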

How the data were processed

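The listed samples are 3 RNA-seq libraries from spheroids. Library preparation used Trizol extraction and an in-house BGI kit, per the labels' protocols. Bowtie2 2.2.5, RSEM 1.2.12, DESeq2 1.4.5 and GRCh38.p13 are named, without roles, in the submitters' processing notes. The authors deposited 1 table of 19215 genes with FPKM values to 2 decimals, per the file headers. It also holds the authors' log2 fold changes between culture forms and their DESeq2 p-values and adjusted p-values, per the file headers. The direction of the deposited log2 values, positive when spheroids are higher, was read from genes at 0 in every spheroid library: 356 of 358 lay below 0. The deposited adjusted p-values equalled a Benjamini-Hochberg adjustment over all 18467 tested genes to within 1.3e-15. The table has 3 further FPKM columns that match no listed sample and were not used, so no fit of the culture forms was made. The files give no read totals, so depth is unknown and no counting interval is given.

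The members, the role classes, the lists of related genes and the markers were chosen with earlier results of these data known. All members may be named; of the other lists those called, those with the largest change or highest level, and others chosen after their values were seen (among them RBL2, WEE1, MAD2L2 and TOP2B). Lists are described by counts and medians beside those of all tested genes, with no list test. Means, SD and coefficients of variation are over the 3 libraries; deviations use log2(FPKM + 1). Promoters came from RefSeq (GRCh38.p14), matched by symbol; the planned search of protein motifs was not made, since no protein sequences were used here. Calls, deviations and motif search were tested on simulated data. Alternatives were other thresholds, a level minimum, centring, median-ratio scaling, a pseudocount of 0.1, leaving out each replicate and other motif windows. The software was SciPy 1.17.1, pandas 2.3.3, matplotlib 3.10.9 and NumPy 2.4.6 under Python 3.11.15.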

Additional observations from a re-analysis of the deposited data

How the results depend on the processing

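The number of members called lower was 49 at an adjusted p under 0.01, with no minimum fold change and with fold changes centred on the median of all tested genes, 48 of the 48 members at 1 FPKM or more, and 44 with a minimum absolute log2 fold change of 2. The median log2 fold change of the members was -3.27 after centring and -3.23 at 1 FPKM or more. All 49 members were highest in replicate 1 after median-ratio scaling as well. The median coefficient of variation of the members, 23.0%, ranged from 8.08% to 27.8% when each replicate was left out, and was lowest without replicate 1. The share of the 38 members with the cell cycle homology region in a promoter was 71.1% with TTTGAA alone. It was also 71.1% from 100 bases before to 50 bases after the start. For matches wholly within the 100 bases before the start it was 39.5%, against 4.89% of other tested genes. Counts over all tested genes moved with the fold minimum: 1724 lower and 2117 higher became 4518 and 4795 with no minimum and 565 and 933 with a minimum of 2. So did those of the related lists with no minimum (cohesin 3 lower and 2 higher, core subunits of the anaphase-promoting complex 8 and 2, DREAM and MuvB 7 and 2, paralogues 7 higher) and with a minimum of 2 (cohesin 0 lower, core subunits 0, DREAM and MuvB 1, paralogues 4 lower and 1 higher). The authors' comparison could not be refitted without single libraries. No paired analysis was possible because the listed samples form 1 group. FPKM to 2 decimals limits the precision of members near 1 FPKM, such as ASPM and MAD2L1.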

Other observations

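Among tested genes other than the members, the cell cycle homology region motif was also more frequent in genes that fell further. It was found in 21.2% of 1292 genes called lower that have a promoter in the RefSeq table, in 27.8% of 403 with a log2 fold change of -2 or less and in 33.6% of 143 with -3 or less in the authors' deposited table, against 16.1% of 11365 genes not called and 18.5% of 1593 called higher. Promoters with more than 1 CCAAT box made up 34.3% of the genes at -3 or less in the authors' deposited table, against 14.3% of genes not called and 12.9% of genes called higher. The median GC content of the promoters was 62.0% for the genes at -3 or less, 63.0% for genes not called and 60.7% for genes called higher. These shares describe letters in a window and were not tested.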
